A study of Mus musculus with 8 samples.

Results

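Genes that neutrophils use to fill and mark their granules as they mature were followed across single cells of mouse colon tumours: S100a8, S100a9, Retnlg, Ngp, Camp, Ltf, Lyz1, Lyz2 and Wfdc17. The set was selected on measured values of these data, namely lower levels of Retnlg and Lyz1 in neutrophils of FibΔZeb1 mice, and its rows were found by gene symbol, which gave 9 of the 20275 genes listed. The levels of the members in neutrophils by genotype were therefore used in the choice. They are given as a description, without a test.

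Tumours grew from genetically altered colon tumour organoids that were transplanted into the cecum wall of mice carrying floxed Zeb1, all of which were fed a tamoxifen diet. In FibΔZeb1 mice, labelled Zeb1Fib-deleted and positive for a Col1a1Cre-ERT2 transgene, tamoxifen activated Cre in fibroblasts. FibCtrl mice, labelled Zeb1Fib-Ctrl, lacked the transgene and were littermates of both sexes. The study's methods name the driver as Col1a2-CreERT2, a collagen promoter, and the age of the mice was not given in the sources used here. The driver is one of fibroblasts, so neutrophils were not the cells in which Zeb1 was targeted. Single cells from 8 mice, 4 FibCtrl and 4 FibΔZeb1, were sorted by FACS into 8 plates of 384 wells, 1 mouse per plate, so the plate was the replicate. SORT-seq then counted the 3′ ends of transcripts with unique molecular identifiers (UMIs), random tags that let copies of 1 molecule be counted once.

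Plates held 981881 to 5905188 transcripts. Cell classes were rebuilt by clustering the wells with at least 500 transcripts without the members. Clusters were named by a score of other marker genes, and the members entered only a check of the leading genes of neutrophil-like clusters. Levels are CPM, the transcripts of a gene per 1000000 transcripts of a class on a plate, and a plate gave a value where it held at least 10 wells of the class. The fibroblast-like wells of 5 plates with at least 10 such wells carried 76.8 and 83.5 CPM of Zeb1 in FibCtrl and 31.9 to 47.8 in FibΔZeb1. Where the deleted part of Zeb1 lies relative to the counted 3′ end was not given in the sources used here, so these values are no full check of the labels. Neutrophil-like wells numbered 256, and 7 plates had enough of them, namely FibCtrl plates 2, 3 and 4 with 26, 20 and 56 wells and FibΔZeb1 plates 1 to 4 with 19, 18, 60 and 53. FibCtrl plate 1 held 4 and gave no value. These wells were shallow, with a median of 1889 transcripts per well against 8505 in the 173 macrophage-like wells. All plates use the same 384 well barcodes, so a shared barcode marks no shared cell.

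Neutrophils store antimicrobial proteins in granules that are filled in sequence while the cell matures in bone marrow. Azurophil granules form in promyelocytes, specific granules in myelocytes and metamyelocytes, and gelatinase granules last. Transcription of most granule proteins has ended by the time the cell enters blood, so their mRNA marks young cells. S100a8 and S100a9, by contrast, encode the cytosolic calcium-binding pair calprotectin and stay abundant in mature neutrophils. The C/EBP family of transcription factors drives much of this programme.

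Several members share a chromosome (GENCODE M21 annotation, GRCm38). S100a8 (chr3:90668978-90670035) and S100a9 (chr3:90692632-90695721) lie 22.6 kb apart. Camp (chr9:109847379-109849617), Ngp (chr9:110419747-110423012) and Ltf (chr9:111019271-111042767) follow each other on chromosome 9 with gaps of 570 and 596 kb, and Lyz2 (chr10:117277331-117282321) and Lyz1 (chr10:117287797-117292868) are 5475 bases apart. Retnlg lies at chr16:48872621-48874496 and Wfdc17 at chr11:83703991-83706268.

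The 250 bases before the transcription start of each member (RefSeq, GRCm38.p6) were searched for a C/EBP motif, spelled TTGCNNAA or TTNNGCAA on the other strand, and for an ETS motif, GAGGAAGT, of the kind that PU.1 binds. The C/EBP letters occurred before 5 of 9 members, against 9.56% of 32851 promoters searched in the same way, and the ETS letters before 1 of 9 (S100a8), against 2.44%. The stretches with the C/EBP letters are shown because this family drives granule genes; capitals mark the motif, and each run reads 5′ to 3′ along the gene's own strand.
S100a9, chr3:90695939-90695968, minus strand: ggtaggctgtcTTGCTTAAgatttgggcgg
Retnlg, chr16:48872358-48872387, plus strand: agctTTCTGCAAggcattccaggcacctcc
Ngp, chr9:110419659-110419688, plus strand: gtcctggtttaTTGCCCAAacctccttgcc
Ltf, chr9:111019206-111019235, plus strand: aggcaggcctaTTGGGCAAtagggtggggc
Lyz1, chr10:117293059-117293088, minus strand: gagcccaatctTTAAGCAAtttgaaataaa
The motif began 236 bases before the RefSeq start in S100a9, 246 in Retnlg, 138 in Ngp, 75 in Ltf and 209 in Lyz1. Ngp had another match, 11 bases before its RefSeq start, which is not shown because it lies within the GENCODE span of the gene. Part of the 250 bases also lay within the GENCODE span for S100a8, Camp, Ltf, Lyz2 and Wfdc17. A match is a description of these letters, not a binding site.

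S100a8, S100a9 and Retnlg belonged to the neutrophils. Neutrophil-like wells held 94.9% of all S100a8 transcripts in kept wells, 95.7% of S100a9 and 91.5% of Retnlg, which encodes the secreted resistin-like gamma. S100a8 had a median of 16882 CPM over the 7 plates, with a range of 4817 to 43868, against 19.7 CPM (8.12 to 127) over the 6 plates with enough macrophage-like wells. For S100a9 the medians were 16042 CPM (5372 to 39855) and 20.1 CPM (0 to 57.9), and for Retnlg 1900 CPM (99.4 to 5616) and 9.16 CPM (0 to 21.7). The lowest neutrophil plate lay above the highest macrophage plate for all 3 genes. With wells thinned to 500 UMIs, a median of 75.8% of neutrophil-like wells per plate showed S100a8, 77.7% S100a9 and 19.8% Retnlg, whereas in macrophage-like wells the shares were 1.96%, 0.894% and 0.492%. Unthinned, S100a8 was seen in 81.3% of neutrophil-like and 21.4% of macrophage-like wells, which were deeper. Traces reached other classes too: epithelial-like wells had a median of 14.6 S100a8 CPM (3.73 to 86.3), and the 1021 wells with fewer than 500 transcripts had 642 CPM (0 to 1586).

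**Figure D1:**
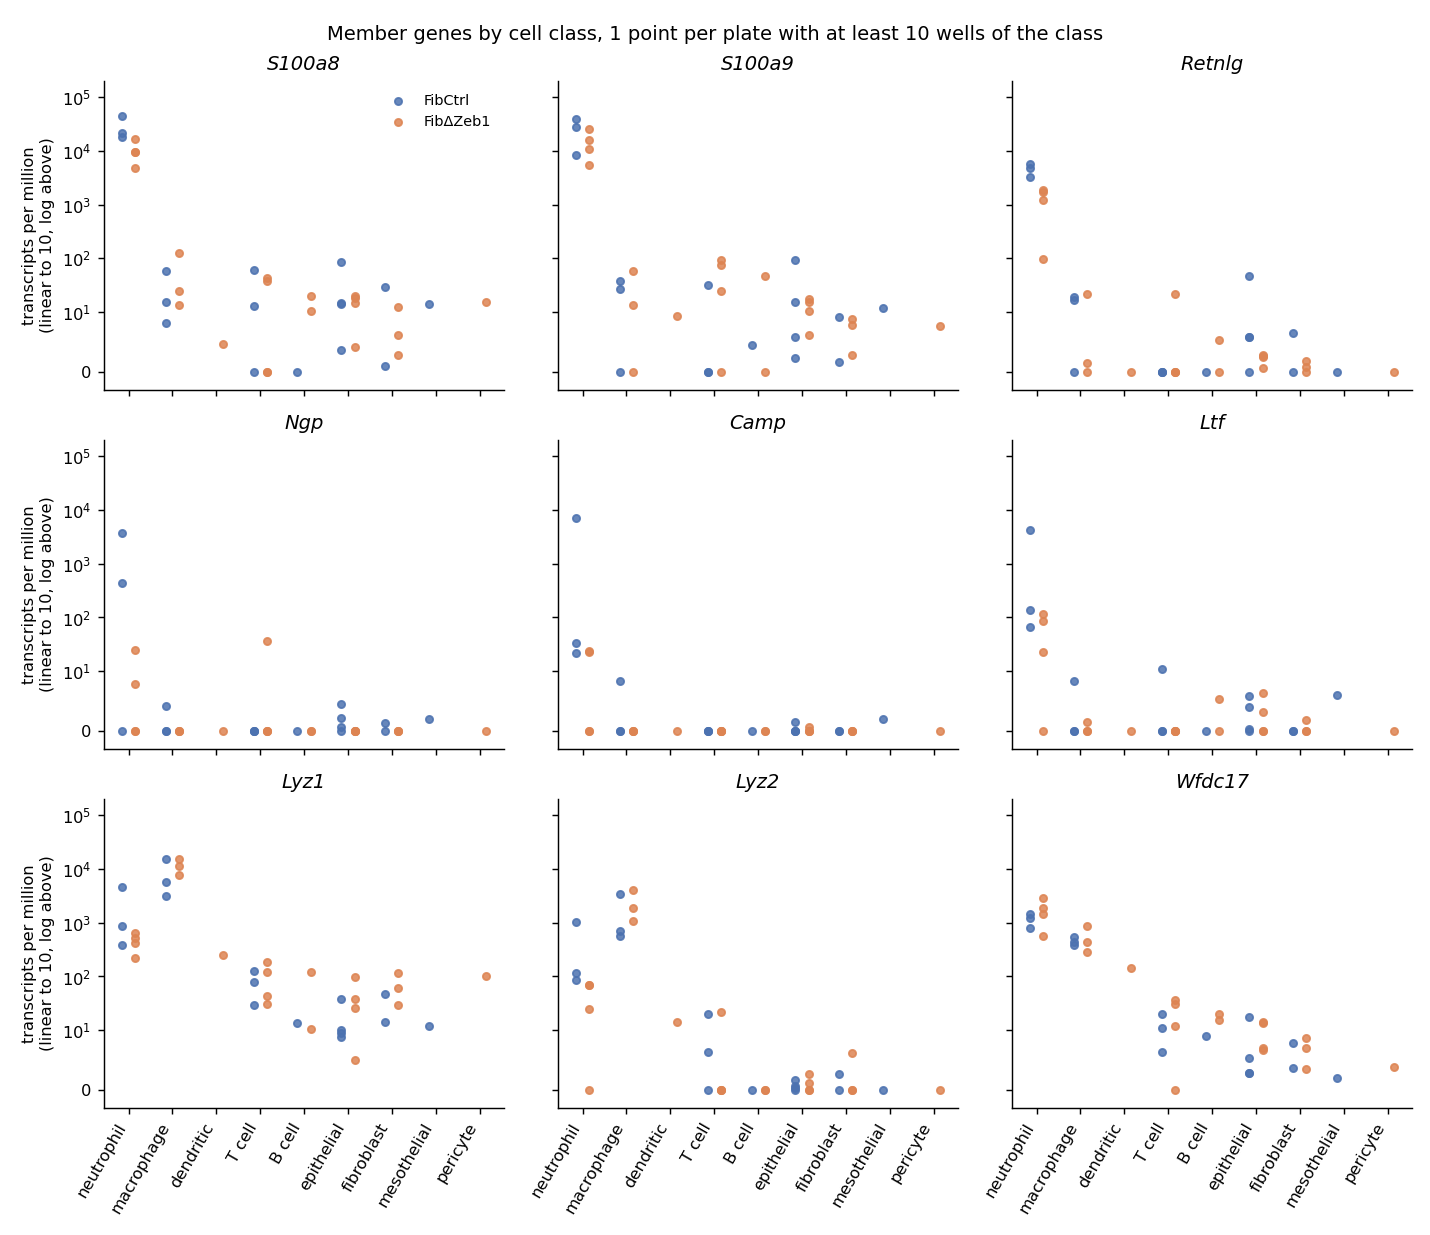
CPM of each member (linear to 10, then log) by cell class, with 1 point per plate holding at least 10 wells of the class, blue for FibCtrl and orange for FibΔZeb1. S100a8, S100a9 and Retnlg stand apart in neutrophils, whereas Lyz1 and Lyz2 are highest in macrophages with medians of 9518 and 1483.

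S100a8 and S100a9 moved together. Their transcripts are counted once per molecule at the 3′ end, so gene length does not enter the ratio, and S100a8 made up 50.8% of the pair over all neutrophil-like wells. By plate the share ran from 37.4% in FibΔZeb1 plate 1 to 68.1% in FibCtrl plate 4. Over the 77 wells with at least 50 transcripts of the pair, the median share was 42.4%. A single well of FibCtrl plate 4 stood apart at 98.1% S100a8, above the next highest well at 83.2%. It held 1213 of that plate's 2530 S100a8 and 24.1 of its 1186 S100a9 transcripts, and so raised the plate's share. A well of FibCtrl plate 3 held 1336 and 614. Both weighed on the share over all wells, which rested on 8678 S100a8 and 8402 S100a9 transcripts.

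Ngp, Camp and Ltf, the specific granule members, were scarce in these tumours. Camp encodes the cathelicidin precursor, Ltf the iron-binding lactoferrin, and Ngp a cystatin-like granule protein. Of the 256 neutrophil-like wells, Ngp was seen in 9, Camp in 8 and Ltf in 23, and the median well with any of them held 1, 1.5 and 1 transcripts. Median CPM over 7 plates were 7.86 for Ngp, 23.1 for Camp and 87.0 for Ltf. Where a plate had no Ngp transcript, the upper limit that 3 counts allow was 50.8 CPM in FibCtrl plate 2, 69.3 in FibΔZeb1 plate 1 and 37.3 in FibΔZeb1 plate 4. Such limits cover counting error only. Azurophil granule genes had fewer transcripts: Mpo, Elane, Prtn3, Ctsg and Ms4a3 had 2, 1, 12, 2 and 0 in the neutrophil-like wells of the 7 plates. Ngp, Camp and Ltf had 242, 358 and 257 in all neutrophil-like wells.

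Most of these granule transcripts came from a well on FibCtrl plate 3, and a well on FibCtrl plate 4 added to Ngp. Outside this pair lay 9.72% of the Ngp, 4.37% of the Camp and 29.6% of the Ltf transcripts in kept wells. The plate 3 well held 10396 transcripts, 5.50 times the neutrophil median, and the 9 members made up 27.9% of them. In that well were 177 Ngp, 347 Camp and 207 Ltf transcripts, equal to 68.7%, 94.8% and 68.1% of all those counted in kept wells of the series. It also held 1336 S100a8, 614 S100a9, 174 Lyz1 and 40.2 Lyz2 transcripts, but 5 of Retnlg and 0 of Wfdc17. Lcn2 and Chi3l3, further specific granule genes, had 259 and 65.5 transcripts there. The well on FibCtrl plate 4 held 8166 transcripts, 4.32 times the median, and had a different make-up: 372 Retnlg, 1213 S100a8 and 55.4 Ngp transcripts, with 24.1 of S100a9, 3 of Camp and 7.01 of Ltf. It carried 37.2 transcripts of Mmp8, the neutrophil collagenase, and 9.01 of Cxcr2, the chemokine receptor of mature neutrophils, both at 0 in the plate 3 well. Neither well held a transcript of Elane, Mpo, Prtn3 or Ctsg, nor of the proliferation genes Top2a and Mki67. Single cells were sorted and no doublet caller was run, so whether either well held more than 1 cell was not tested. The 176 kept wells of other clusters on FibCtrl plate 3 had Ngp in 8 wells, Camp in 5 and Ltf in 11, with at most 2 transcripts in any.

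The transcripts of the other members were also concentrated, although S100a8 and S100a9 were each seen in 208 of the 256 wells, Wfdc17 in 122 and Lyz1 in 111. The 10 richest of 256 wells were needed to reach 50% of the S100a8 transcripts and 24 for S100a9, but 4 sufficed for Retnlg, 5 for Lyz1, 2 for Lyz2 and 14 for Wfdc17. Retnlg was seen in 67 wells. In FibCtrl plate 4 the richest well alone held 83.7% of that plate's neutrophil Retnlg, in FibCtrl plate 2 it held 49.6%, and in FibΔZeb1 plate 2 it held 22.4%.

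**Figure D2:**
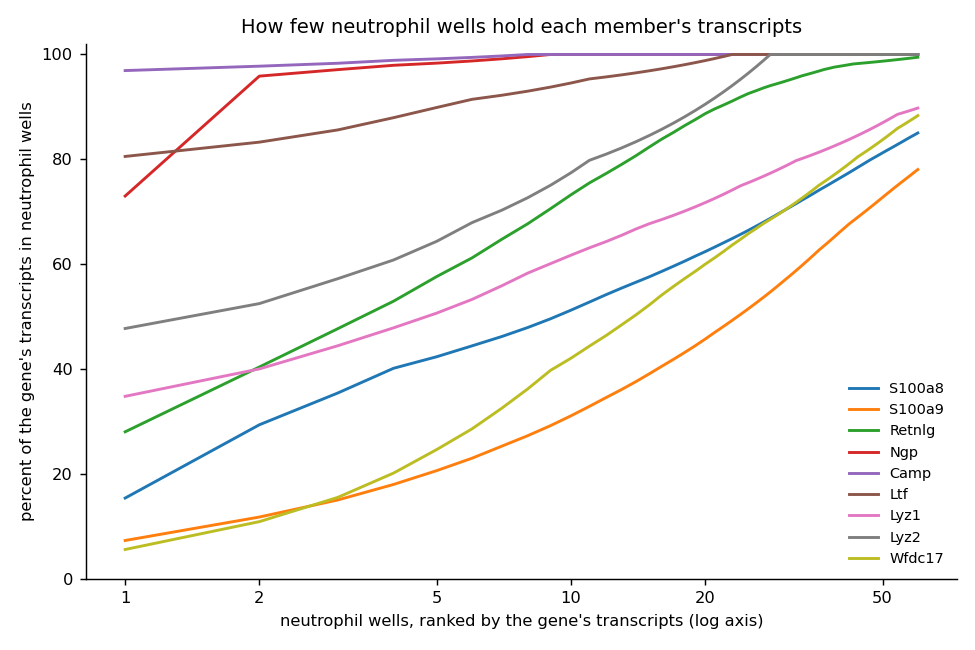
Percent of each member's transcripts in the 256 neutrophil-like wells (vertical axis) held by the richest wells, ranked by that gene (log axis). Camp, Ngp and Ltf reach 50% with 1 well, Retnlg with 4 and S100a9 with 24.

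Lyz1 and Lyz2 went against the name granule genes of neutrophils in these tumours. Both encode lysozyme, which cuts bacterial cell walls; Lyz2 is the usual form of myeloid cells and Lyz1 that of Paneth cells of the gut. Macrophage-like wells held 91.3% of all Lyz1 and 95.3% of all Lyz2 transcripts in kept wells, and neutrophil-like wells 2.83% and 2.67%. Median levels in macrophages were 9518 CPM for Lyz1 (3140 to 15559) and 1483 CPM for Lyz2 (572 to 4120), against 522 CPM (225 to 4624) and 70.7 CPM (0 to 1012) in neutrophils. The ranges overlapped for both genes because of FibCtrl plate 3, which held the highest neutrophil value. After thinning to 500 UMIs, a median of 85.6% of macrophage-like and 21.9% of neutrophil-like wells showed Lyz1, and for Lyz2 the shares were 40.3% and 3.05%. The macrophages formed 3 clusters. Lyz1 stood at 9298 CPM in the largest, which C1qa leads (111 wells), at 4959 in a cluster led by Mmp12 and Arg1 (41 wells), and at 12994 over all wells of a small one (21 wells), whose only plate with at least 5 wells had 2708.

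The transcript assigned to Lyz1 outnumbered Lyz2 in every class with counts of both. Lyz1 made up 84.3% of their sum in macrophage-like wells (exact 95% binomial interval 83.8 to 84.8%), with plates of at least 5 such wells between 79.1% and 89.7%, and 85.6% (82.5 to 88.3%) in neutrophil-like wells. Classes with little lysozyme gave higher shares, namely 97.0% in epithelial-like and 96.0% in fibroblast-like wells. Over all kept wells the share was 94.6% in those with 1 to 4 lysozyme transcripts, 89.3% with 5 to 19, 86.6% with 20 to 99 and 83.8% with 100 or more. These levels mix classes, and the lowest held 17 macrophage-like and 530 other wells. In macrophage-like wells alone the shares were 85.4%, 88.9%, 86.5% and 83.8%, with no steady fall. In the other wells they were 95.1%, 89.6%, 88.1% and 81.3%, the last from 1 well. The transcripts of the pair are 96.0% identical over 1262 aligned bases and 97.4% over their last 500 bases, and 11.8% of the 60-base windows of Lyz2 there occur unchanged in Lyz1. The counting could therefore have split reads between them, and their separate values are uncertain.

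**Figure D3:**
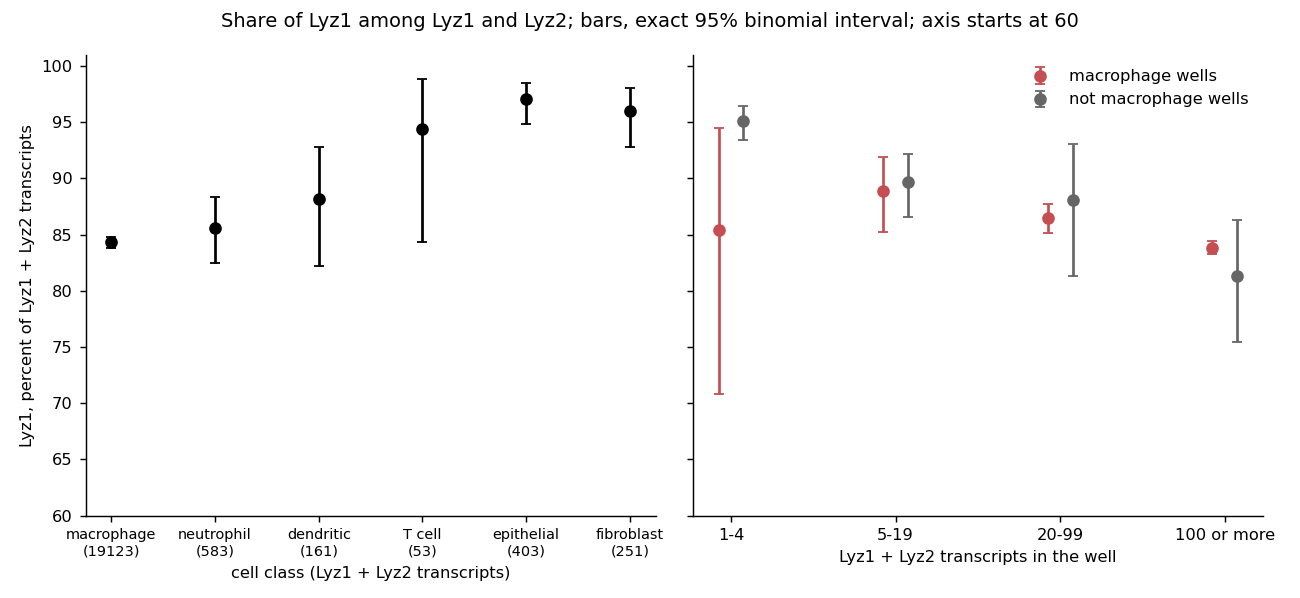
Lyz1 as a percent of Lyz1 and Lyz2 transcripts by cell class (left, number of transcripts in brackets) and by the number of these transcripts in a well (right, red for macrophages and grey for other wells); bars are exact 95% binomial intervals and the axis starts at 60. The share is 84.3% in macrophages and 97.0% in epithelial wells. As the level rises it runs 85.4%, 88.9%, 86.5% and 83.8% in macrophages and falls from 95.1% to 81.3% in other wells.

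Wfdc17 was shared by neutrophils and macrophages. It encodes a small secreted protein with a WAP domain, a fold of protease inhibitors, known from activated macrophages and microglia. Neutrophil-like wells held 43.4% of its transcripts and macrophage-like wells 42.3%. The median level was 1472 CPM (572 to 2902) in neutrophils and 431 CPM (285 to 855) in macrophages, so the ranges overlapped. On the 5 plates with enough of both classes, the neutrophil level was 2.10, 2.88, 6.74 and 3.42 times the macrophage level and, on FibΔZeb1 plate 4, 0.669 times. The single plate with enough dendritic-like wells had 146 CPM, and medians of the other named classes stayed below that.

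The neutrophils fell into 3 clusters, of which 1 stood apart from the others in its levels of the members, although these had not been used to build the clusters. A cluster of 83 wells, led by S100a8, carried 34568 S100a8 CPM, 31098 S100a9, 6111 Retnlg and 2971 Wfdc17. A second of 100 wells, led by Mmp9, the gelatinase of late granules, and by Siglec5, had 4346, 5649, 191 and 267 CPM of the same genes. The third, of 73 wells and led by Ccl3, a chemokine of activated neutrophils, had 4584, 5943, 142 and 506. The last pair had like levels of S100a8, S100a9 and Retnlg. Lyz1 stood at 1664 CPM in the S100a8-led cluster, 514 in the Mmp9-led and 356 in the Ccl3-led. The 2 granule-rich wells belonged to the S100a8-led cluster. They held 174 and 26.1 of its 346 Lyz1 transcripts, 1336 and 1213 of its 7185 S100a8, and 5 and 372 of its 1270 Retnlg. Ccl3 itself stood at 2414 CPM in the S100a8-led, 2262 in the Mmp9-led and 15162 in the Ccl3-led cluster. Since the same cells were clustered, these differences carry no test. The share of neutrophil-like wells in the S100a8-led cluster was 42.3%, 85.0% and 19.6% in FibCtrl (plates 2 to 4) and 42.1%, 72.2%, 25.0% and 13.2% in FibΔZeb1, so the genotypes overlapped.

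**Figure D4:**
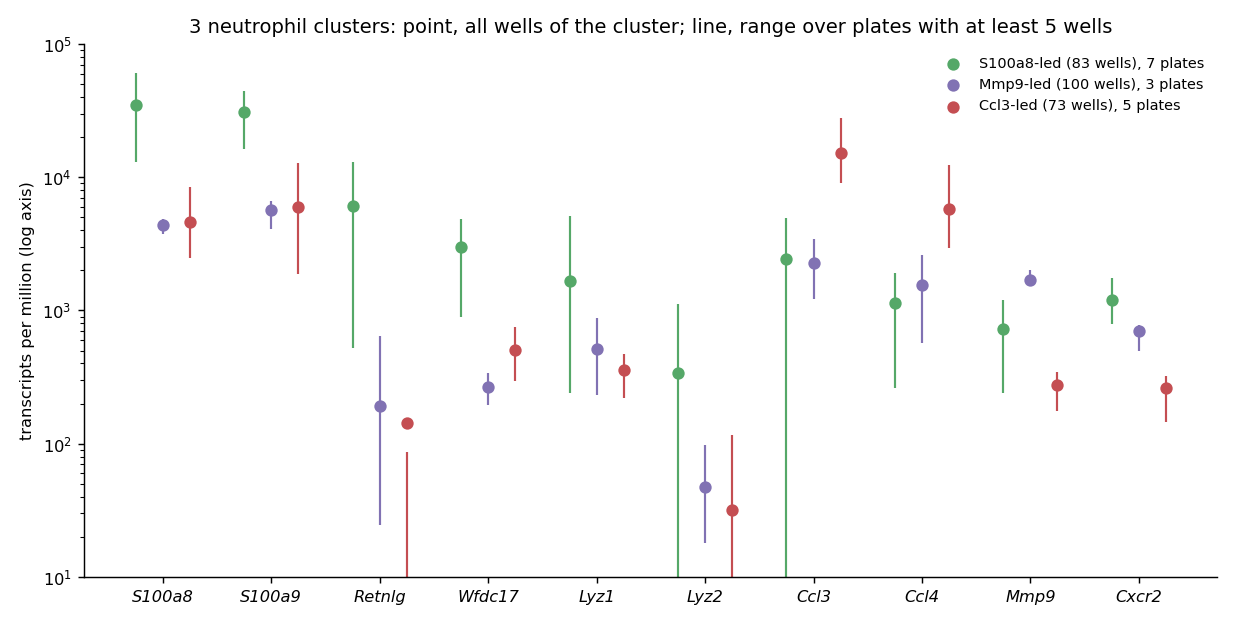
CPM (log axis) of members and of 4 other neutrophil genes in the 3 neutrophil clusters; points pool all wells of a cluster and lines span the plates with at least 5 of its wells, running to the bottom where a plate had under 10 CPM. S100a8 stands at 34568 in the S100a8-led cluster and at 4346 and 4584 in the others, and Ccl3 at 15162 in its own. For Retnlg in the Ccl3-led cluster the point lies above the line because plates with fewer wells hold most transcripts. The S100a8-led cluster includes the 2 granule-rich wells.

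From well to well, some members varied together. Over 252 wells, with ranks taken within plates, Spearman's rho was 0.83 for S100a8 with S100a9, 0.42 for S100a8 with Retnlg, 0.39 for S100a9 with Wfdc17 and 0.36 for Lyz1 with Lyz2. The value for the lysozyme pair is uncertain, because the counting could have split reads between them. The lowest values were 0.13 for Lyz2 with Wfdc17, 0.14 for Retnlg with Lyz2 and 0.16 for S100a9 with Lyz1. The points share a library on each plate, and rho with transcripts per well was at most 0.22 for any of these 6 members. The genes most like S100a8 among 2703 ranked were Lrg1 (0.42), 1100001G20Rik (0.41) and Gda (0.39), and those most like S100a9 were S100a11 (0.46), Ifitm1 (0.40) and Lrg1 (0.40). Retnlg was most like Mmp8 (0.44), 1100001G20Rik (0.40) and Lrg1 (0.40). For Wfdc17, S100a11 (0.40) and Lrg1 (0.38) were the most alike. For Lyz1 (Ptpn1, Trpv2 and Pfkfb4) and Lyz2 (Mmp8, 1810033B17Rik and Ube2h) the best values were below 0.30 in sparse counts, and are no finding. Ngp, Camp and Ltf were seen in too few wells to be ranked. Ccl3 ran the other way, with rho of -0.25 for S100a8, -0.24 for S100a9 and -0.27 for Retnlg.

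In neutrophil-like wells, 8 of the 9 members had a lower mean CPM in FibΔZeb1 (n = 4 plates) than in FibCtrl (n = 3), and Wfdc17 a higher one. In 3 of 9 members, S100a8, Retnlg and Lyz2, all FibCtrl plates lay above all FibΔZeb1 plates; of all genes tested in these wells, 2.92% had that pattern, and nothing is read from the comparison because the choice of members used this contrast. Of the 9 members, 5 passed the filter on low counts, S100a8 and Retnlg among them, and Lyz2 did not. In the test of all 1060 genes that passed it, 1 gene was called (0.0943%). The members stayed in that fit, but no outcome is read for them, because this contrast was used to choose them.

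S100a8 stood at 21479, 43868 and 18268 CPM in FibCtrl plates 2, 3 and 4, and at 9581, 16882, 9446 and 4817 in FibΔZeb1 plates 1 to 4, which are 27871 ± 13946 and 10182 ± 4986 (SD). Its partner S100a9 stood at 27777, 39855 and 8562 CPM against 16042, 25302, 10961 and 5372. The groups did not overlap for S100a8 but did for S100a9, whose FibCtrl plate 4 lay below 3 FibΔZeb1 plates.

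Retnlg was at 5616, 4849 and 3211 CPM in FibCtrl plates 2, 3 and 4 and at 1692, 1900, 1213 and 99.4 in FibΔZeb1 plates 1 to 4. The means were 4559 ± 1228 and 1226 ± 804 CPM, a ratio of 3.72, and no plate overlapped. The share of wells showing Retnlg did not follow: thinned to 500 UMIs, it was 19.8%, 43.1% and 10.1% in FibCtrl and 19.9%, 42.0%, 15.5% and 4.42% in FibΔZeb1. The FibCtrl plates were thus higher in CPM, while the shares of wells with any Retnlg overlapped.

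Lyz1 was at 390, 4624 and 860 CPM in FibCtrl and at 647, 225, 416 and 522 in FibΔZeb1, with means of 1958 ± 2320 and 453 ± 179. The lowest FibCtrl plate lay below 3 of the FibΔZeb1 plates, and FibCtrl plate 3 set the mean. Lyz2 was at 84.7, 1012 and 116 CPM against 69.3, 0, 70.7 and 24.9. The plates did not overlap for Lyz2, but it had 84 transcripts in all neutrophil-like wells, and a count of 0 on FibΔZeb1 plate 2 allows up to 74.9 CPM.

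Ngp stood at 0, 3678 and 429 CPM in FibCtrl and at 0, 25.0, 7.86 and 0 in FibΔZeb1. For Camp the values were 33.9, 7188 and 21.7 against 23.1, 0, 23.6 and 0, and for Ltf 67.8, 4304 and 137 against 23.1, 0, 118 and 87.0. The genotypes overlapped for all 3, and the high FibCtrl values lay on the plates with the granule-rich wells. Wfdc17 was at 1477, 803 and 1246 CPM in FibCtrl and at 1922, 2902, 1472 and 572 in FibΔZeb1, with overlap in both directions.

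Much of this separation rested on single wells. Without the 2 granule-rich wells, an alternative added after the data were seen, Lyz2 was the only member that did not overlap: 84.7, 236 and 92.1 CPM against 0 to 70.7. Retnlg on FibCtrl plate 4 then stood at 555 CPM, below 3 of the FibΔZeb1 plates, and S100a8 on that plate at 10103, below the 16882 of FibΔZeb1 plate 2. Lyz1 on FibCtrl plate 3 dropped from 4624 to 1337 CPM, Ngp from 3678 to 52.4, Camp from 7188 to 52.4 and Ltf from 4304 to 52.4. When the richest well of each plate was left out instead, 1 of 9 members (Lyz2) did not overlap, and Retnlg stood at 3045, 3050 and 555 CPM against 841, 1704, 959 and 63.8. With each well weighted equally, 0 of 9 did, and Retnlg stood at 3401, 3924 and 1198 CPM against 1562, 2105, 1632 and 94.2. The mean of FibCtrl was the higher for the same 8 members under each of these settings. The share of all genes without overlap was counted only over all wells, so nothing is read from these counts. For Lyz2 over all wells, the lowest FibCtrl plate (plate 2) held 5 transcripts, with an exact 95% Poisson interval of 27.5 to 198 CPM. The highest FibΔZeb1 plate (plate 3) held 9, with an interval of 32.3 to 134 CPM.

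**Figure D5:**
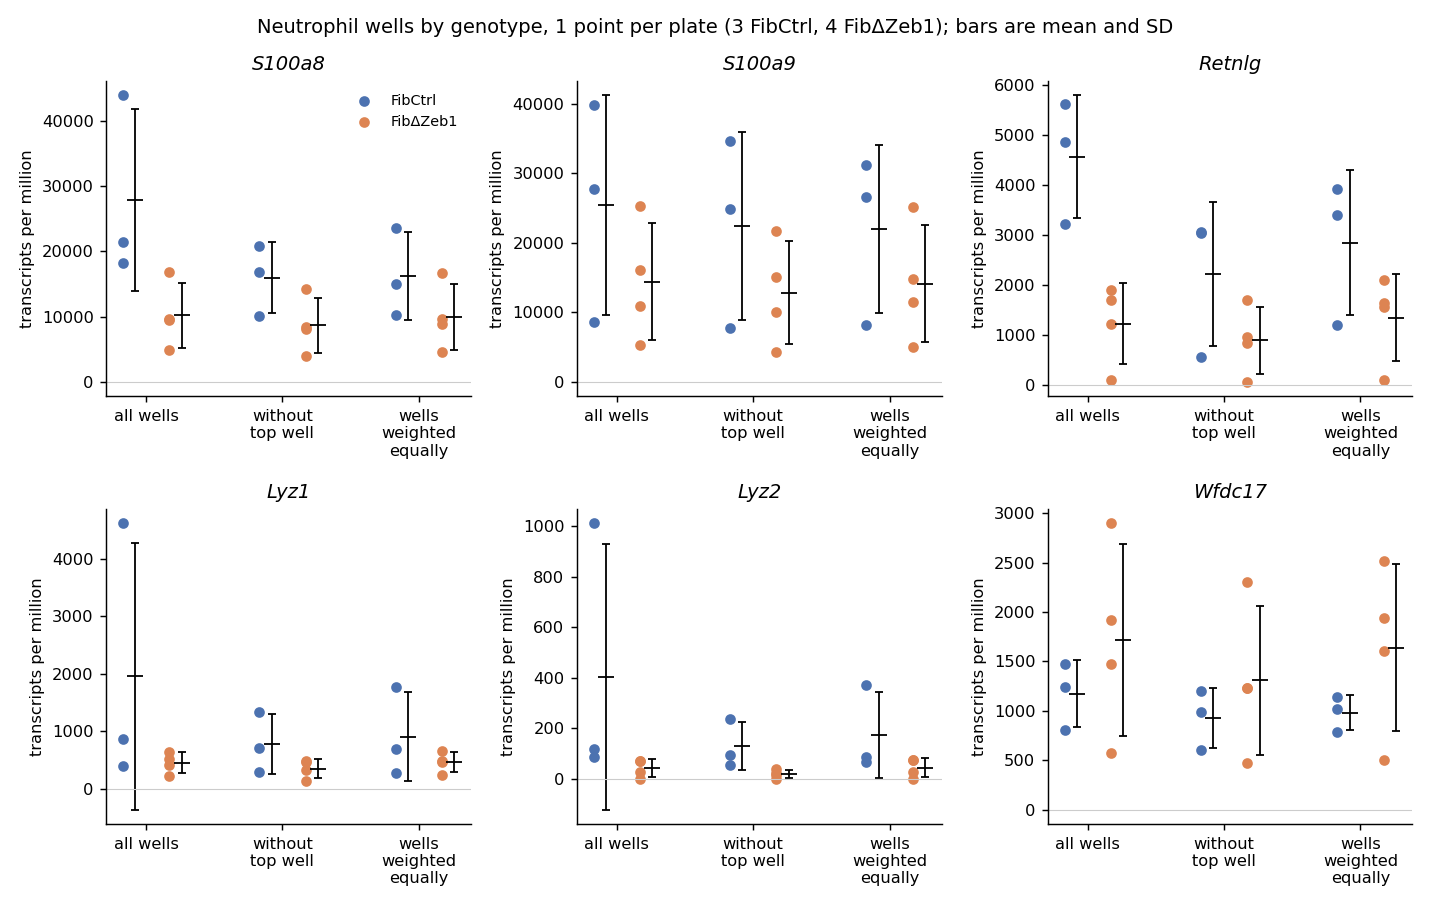
CPM of 6 members in neutrophil-like wells, with 1 point per plate (3 FibCtrl in blue, 4 FibΔZeb1 in orange) and bars for mean and SD, over all wells, without the richest well of each plate, and with wells weighted equally. Retnlg separates over all wells (3211 to 5616 against 99.4 to 1900) and overlaps under both alternatives.

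Within the S100a8-led cluster the same held. Retnlg was at 9426 ± 3813 CPM in FibCtrl and 2473 ± 1563 in FibΔZeb1, and S100a8 at 47345 ± 13386 and 18089 ± 6048, each without overlap. Without the granule-rich wells, FibCtrl stood at 6507 ± 3707 and 29728 ± 5746 CPM, and both genes overlapped.

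Plates 1 and 2 of each genotype carry another flow cell name than plates 3 and 4. Retnlg was lower in FibΔZeb1 on both, with means of 5616 against 1796 CPM on the first (1 against 2 plates) and 4030 against 656 on the second (2 against 2). Lyz1 differed by 46.0 CPM in the other direction on the first flow cell, 390 against 436, and stood at 2742 against 469 on the second. Wfdc17 was 935 CPM higher in FibΔZeb1 on the first, 2412 against 1477, and stood at 1022 against 1024 on the second.

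Markers of other cell types were present in the neutrophil-like wells. Those of fibroblasts, summed over 9 genes, reached levels as high as Retnlg alone. Summed over the macrophage list, they reached 169 to 1055 CPM in FibCtrl and 325 to 1664 in FibΔZeb1, and over the fibroblast list 1008 to 6800 and 1098 to 5431. The summed neutrophil markers other than the members spanned 15557 to 24502 CPM in FibCtrl and 11889 to 27225 in FibΔZeb1. The genotypes overlapped for each list, and the part of these transcripts in the values of Lyz1, Lyz2 and Wfdc17 was not tested.

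In macrophages, which the choice of members did not use, no difference by genotype passed the test. Lyz1 was at 5852, 3140 and 15061 CPM in FibCtrl plates 1, 3 and 4 and at 7731, 11304 and 15559 in the FibΔZeb1 plates of the same numbers. Lyz2 was at 707, 572 and 3437 CPM against 1095, 1870 and 4120, and Wfdc17 at 545, 383 and 432 against 285, 431 and 855. All 3 overlapped. The log2 fold changes, FibΔZeb1 over FibCtrl, were 0.54 (SE 0.48) for Lyz1, 0.60 (SE 0.65) for Lyz2 and 0.17 (SE 0.38) for Wfdc17, each with an adjusted p of 0.9999 by edgeR's quasi-likelihood test. The other 6 members did not pass the filter there. Of 4471 genes tested in macrophages, 0% were called by edgeR, 166 had an unadjusted p under 0.05, and DESeq2 called 1, so the count of 0 among the members equals the background.

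Of 64 other genes of granules, maturation and activation, in 6 lists chosen with earlier results known, 47 could be tested in neutrophils and 0 passed edgeR's test in either direction, while 4 had an unadjusted p under 0.05 and DESeq2 called 1 gene of all, no list gene. The genes listed under specific granules had a median log2 fold change of -1.06, with 6 of 6 below 0, against a median of 0.02 and 48.7% below 0 over all genes tested. The most abundant of them were Lcn2, the iron-chelator carrier lipocalin 2, at 773 to 6381 CPM in FibCtrl and 186 to 1925 in FibΔZeb1, and Anxa1, a brake on neutrophil recruitment, at 627 to 3355 and 373 to 1149. Their log2 fold changes were -1.21 (SE 0.74) and -1.19 (SE 0.61), with adjusted p of 0.955 by edgeR. The values rested in part on the 2 granule-rich wells. Without them, an alternative added after the data were seen, Lcn2 was at 499.5 to 2528 CPM in FibCtrl with a log2 fold change of 0.00048 (SE 0.68), that of Anxa1 was -0.43 (SE 0.56), and the list had 4 of 6 below 0 with a median of -0.37.

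Genes of gelatinase granules and secretory vesicles had a median of -0.63, with 7 of 7 below 0; without the granule-rich wells the median was -0.35. Fpr2, a receptor for formylated bacterial peptides, was at 1112 to 1832 CPM in FibCtrl and 522 to 1124 in FibΔZeb1, and Mmp9 at 543 to 1315 and 325 to 1529. Of 12 mature blood neutrophil genes, 11 were below 0 with a median of -0.16. Il1r2, the decoy receptor for IL-1, did not overlap, with 3190 to 3815 CPM against 2034 to 2349, but its log2 fold change of -0.66 (SE 0.34) had an adjusted p of 0.955 by edgeR. Ifitm1, an interferon-inducible membrane protein, was at 1148 to 2662 and 1529 to 3945 CPM.

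Most tumour and activation genes lay on the other side, with 3 of 15 below 0 and a median of 0.20. The 3 below 0 were the chemokines Ccl4 at -0.97 (SE 0.49), Ccl3 at -0.44 (SE 0.67) and Cxcl2. The most abundant genes of the list, Cxcl2 and the cytokine Il1b, differed little, with log2 fold changes of -0.04 (SE 0.64) and 0.01 (SE 0.50). Granulocyte transcription factors had 3 of 7 below 0 and a median of 0.21. Junb, an AP-1 subunit, was at 2764 to 2964 CPM in FibCtrl and 1988 to 7166 in FibΔZeb1, and Cebpb at 2079 to 2781 and 1956 to 4819. The 5 azurophil granule genes were too low to test; Prtn3 and Ctsg, the highest of them, had ranges of 0 to 14.4 and 0 to 0 CPM in FibCtrl and 0 to 62.9 and 0 to 46.2 in FibΔZeb1.

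The number of neutrophils did not separate the genotypes. They made up 3.42%, 76.5%, 22.0% and 56.0% of the immune wells in FibCtrl and 17.0%, 19.4%, 59.4% and 49.5% in FibΔZeb1, each in plate order. The means were 39.5 ± 32.9% and 36.3 ± 21.4% (SD, n = 4 each), a difference of -3.15 percentage points with a two-sided exact permutation p of 0.8286 over 70 arrangements. By flow cell the means were 39.9% against 18.2% on the first and 39.0% against 54.5% on the second, so the direction turned between them. The sort into 3 gates set how many immune cells a plate received, and gates entered none of these values. Immune wells were those of the named immune classes. An unnamed cluster of 39 wells, led by Ccl5 and Gzma, was not among them.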

How the data were processed

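Single cells of 8 mouse tumours were measured by SORT-seq. Per the labels and the study's methods, the authors' provider aligned reads to the GRCm38 transcriptome with bwa and counted transcripts per gene and well. The deposited values are estimated counts, UMI counts corrected for collisions in a pool of 4096, not scaled to depth, and strand use was not given in the sources used here. Spike-in and mitochondrial rows were left out. The members and lists were chosen with earlier results of these data known.

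Wells with at least 500 transcripts and a mitochondrial share within 3 median absolute deviations of the plate median were clustered without the members (2000 variable genes, 20 components, 15 neighbours, Leiden resolution 1; scanpy 1.11.5, leidenalg 0.10.2, Python 3.11.15). A class name needed a marker score of 0.5 and 3 detected markers. No other marker list could have more genes among the 10 leading genes of the cluster than its own list. A cluster of low depth for its plates also needed at least 1 leading gene of its own list. In this check the members counted for the neutrophil list. By this rule a cluster of 39 wells stayed unnamed, although it scored 2.985 for natural killer and innate lymphoid cells with 6 markers detected. No doublet caller was run. Counts summed per plate with at least 10 wells of a class were rounded and fitted with edgeR 4.0.16 (quasi-likelihood, TMM, its expression filter; R 4.3.3) on genotype alone, with Benjamini-Hochberg adjustment over all genes tested, checked on simulated data; DESeq2 1.42.0 was an alternative. Each mouse had 1 plate, so p-values measure the spread between mice and plates together. The neutrophil-like wells of a plate summed to 40061 to 138473 transcripts. Exact tests and intervals used scipy 1.17.1.

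All 9 members were named. From the lists, called genes and the 2 genes with the highest mean CPM per list were named, and by likeness the 3 genes with the highest rho per member seen in 10% of wells. Mmp8, Ccl3, Mpo, Elane and Ms4a3, the genes named in the 2 granule-rich wells and the leading genes of clusters were named after their values were seen. Some items that these rules name are not reported here. Older symbols in the files (Chi3l3, Siglec5) were kept. Replicate numbers do not pair the mice. Genotypes were not compared in other classes, and sort gates were not used.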

Additional observations from a re-analysis of the deposited data

How the results depend on the processing

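Under 12 alternatives, the members tested in macrophages had 0 calls throughout. Leaving out FibΔZeb1 plate 4 turned the log2 fold changes of Lyz2 and Wfdc17 there from 0.60 and 0.17 to -0.085 and -0.37, with ranges over left-out plates of -0.085 to 1.83 and -0.37 to 0.48. In neutrophils 1 gene was called, 20 of 13240 without the expression filter, and 1 to 6 with a plate left out, the 6 without FibCtrl plate 2. In macrophages 0 genes were called, 1 with DESeq2, 39 of 14362 without the filter, and 0 to 1 with a plate left out, the 1 without FibCtrl plate 4. The cause of these changes was not tested. The difference in neutrophil share ranged from -15.2 to 9.18 percentage points with a plate left out and was positive without FibCtrl plate 2, FibCtrl plate 4, FibΔZeb1 plate 1 or FibΔZeb1 plate 2.

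The difference in S100a8 CPM in neutrophils, FibΔZeb1 minus FibCtrl, was -17690 and became -6272 with wells weighted equally; that of Retnlg was -3333 and became -1325 without the richest well of each plate and -1493 with wells weighted equally. Leaving out FibCtrl plate 3 brought the difference of Lyz1 from -1505 to -173 CPM, that of Camp from -2403 to -16.1 and that of Ltf from -1446 to -45.6. The sign of the differences of the 9 members stayed in 117 of 117 alternatives, but the members were chosen on this contrast.

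Samples share only a replicate number: same-numbered plates correlated at 0.15, -0.26 and 0.50 in neutrophils and 0.08, 0.002 and 0.09 in macrophages, and not every plate correlated best with its own number. With the replicate block, 1 gene was called in neutrophils and 0 in macrophages, the log2 fold changes in macrophages were 0.74 (Lyz1), 0.84 (Lyz2) and 0.06 (Wfdc17), and the exact permutation p of the neutrophil share was 0.875 over 16 arrangements, whose smallest p is 0.125. With a median of 1889 transcripts per neutrophil-like well and 3 against 4 plates, levels near 50 CPM were not detectable on every plate.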

Other observations

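The gene called in neutrophil-like wells was BC018473. It had 173, 53 and 257 transcripts on FibCtrl plates 2, 3 and 4 and 0, 0, 1 and 2 on FibΔZeb1 plates 1 to 4, with a log2 fold change of -7.43 (SE 0.67) and an adjusted p of 5.13e-05 by edgeR's quasi-likelihood test. DESeq2 also called 1 gene. BC018473 was among the leading genes of the Ccl3-led neutrophil cluster, in which Retnlg and Lyz1 were lowest. Of the listed genes, Tnf and Icam1 had log2 fold changes of 1.23 (SE 0.51) and 1.04 (SE 0.45), and Mmp8 of -1.49 (SE 0.68), all with an adjusted p of 0.955 by edgeR. Without the 2 granule-rich wells, Mmp8 on FibCtrl plate 4 stood at 61.4 instead of 325 CPM, within the FibΔZeb1 range of 0 to 254, and its log2 fold change was -1.10 (SE 0.83). These genes were chosen after their values were seen, by an unadjusted p under 0.05.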
